A study of Mus musculus with 30 samples.

Results

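The genes described here are 13 genes whose transcripts were present in wildtype cells on day (d) 2 of a differentiation of mouse embryonic stem cells (ESCs) and much reduced after the Wnt pathway agonist CHIR99021 (CHIR) had been added. They were chosen from the wildtype values among 54134 rows of the count table, each count being divided by its library total and scaled to CPM, the number of counts in each 1000000 of the library. A gene was kept where the wildtype mean was at least 20 CPM at d2, at most 25% of the d2 mean at both d2.5 and d3, and at most 50% of it at d4, the d4 mean being that of replicates 1 and 3. These thresholds were met by 16 genes, and 3 of them, Otx2, Fgf5 and Pou3f1, belong to 9 well known genes that were left out by name. The 13 that remained were Zic2, Zic5, Tcf15, Etv2, Chac1, Slc27a2, Enpp2, Enpp3, Pla2g10, Spon1, Dcaf12l1 and the small non-coding RNA genes Gm24289 and Gm25588. Because the wildtype values at d2, d2.5, d3 and d4 chose the genes, these values are given without a test, and tests were made in Nr6a1-/- libraries, which the choice did not use, and between genotypes at d4G.

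The series held 30 RNAseq libraries from cells of the Bruce4 ESC line, with 3 replicates in each of 10 groups, namely 2 genotypes at 5 stages. Cells of both genotypes were treated with FGF2 from d0 and collected at d2, then given CHIR and collected after 12 h (d2.5) and 24 h (d3), and at d4 after 1 more day in the same condition or with the growth factor Gdf11 added on d3 (d4G). No group was kept without CHIR after d2, so that an effect of CHIR cannot be told apart from time in culture. Nr6a1 encodes an orphan nuclear receptor, and the Nr6a1-/- libraries came from 1 clone, B1, with a different deletion in exon 4 of each allele, so that the genotype and the clone cannot be told apart. No label says whether replicates were separate cultures, and p-values therefore measure the spread between these libraries only. In the labels each d4 library carries the same index, the short barcode that sorts reads to libraries, as a d3 or d4G library. Libraries of the same index cannot be sorted within 1 pool, and how libraries were pooled is not stated. In comparisons of d4 with d3 or d4G, a difference between pools therefore cannot be told apart from the stage or Gdf11.

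On FGF2, ESCs pass into a state like that of the epiblast, the layer of the early embryo from which all its tissues arise. Zic, Otx and POU-domain factors are known to mark this state, in which cells are primed for differentiation but not yet committed. CHIR inhibits the kinase GSK3 and so stabilises beta-catenin, and Wnt signalling together with FGF moves such cells to neuromesodermal progenitors (NMPs), posterior cells that can form both spinal cord and paraxial mesoderm.

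Library totals ranged from 1570714 to 3688197 counts, so that a count of 0, taken to allow up to 3 counts, limits a level to between 0.813 and 1.91 CPM in 1 library. Such limits cover counting error only. Replicate 2 of d4 wildtype stood apart from the other d4 libraries in the genes described here, and each d4 wildtype value below is given with and without it where it matters. Nr6a1 itself was counted at 81.7 ± 1.16 CPM in d2 wildtype and 92.8 ± 6.21 CPM in d2 Nr6a1-/- libraries (SD, n = 3), but these reads come from 3′ ends, away from the deleted exon, and so do not check the genotype. As a check of the state of the cells, the summed level of 24 listed epiblast genes lay between 5368 and 5728 CPM in d2 wildtype libraries and between 6784 and 7113 CPM in d2 Nr6a1-/- libraries, and between 1249 and 1304 CPM and 1562 and 1851 CPM at d3. Of the 13 genes, 3 (Zic2, Zic5 and Tcf15) are on that list and none is on a list of 24 genes of naive pluripotency, so that the name epiblast gene is borne by established markers for these 3 only. The others are described as genes that share the time course. Levels are from 3′ ends and bulk RNA, in which fewer cells that carry a transcript and less of it in each cell cannot be told apart.

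In wildtype cells the 13 genes were left at between 14.6% and 24.3% of their d2 mean after 12 h of CHIR, with a median of 20.1%, and at between 2.29% and 22.3% at d3, with a median of 10.7%. These shares are what the rule asked for. At the thresholds, Pla2g10 (20.2 CPM at d2) and Gm25588 (24.2 CPM) were just inside the d2 minimum, and Wt1 (19.4 CPM) and Myb (19.3 CPM) just outside it. At d2.5 Slc27a2 (24.3% of d2) and Chac1 (23.8%) were just inside, and Gm24616 (25.9%) and Nav2 (27.6%) just outside. At d3 Dcaf12l1 (22.3%) and Gm24289 (21.1%) were the closest inside, and Fgf4 (27.4%) was the single gene that failed there alone. No gene failed at d4 alone, where Gm24289 (46.7%) and Gm25588 (36.6%) were closest to the limit. In all, 46 genes met every threshold but the one at d2.5.

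**Figure D1:**
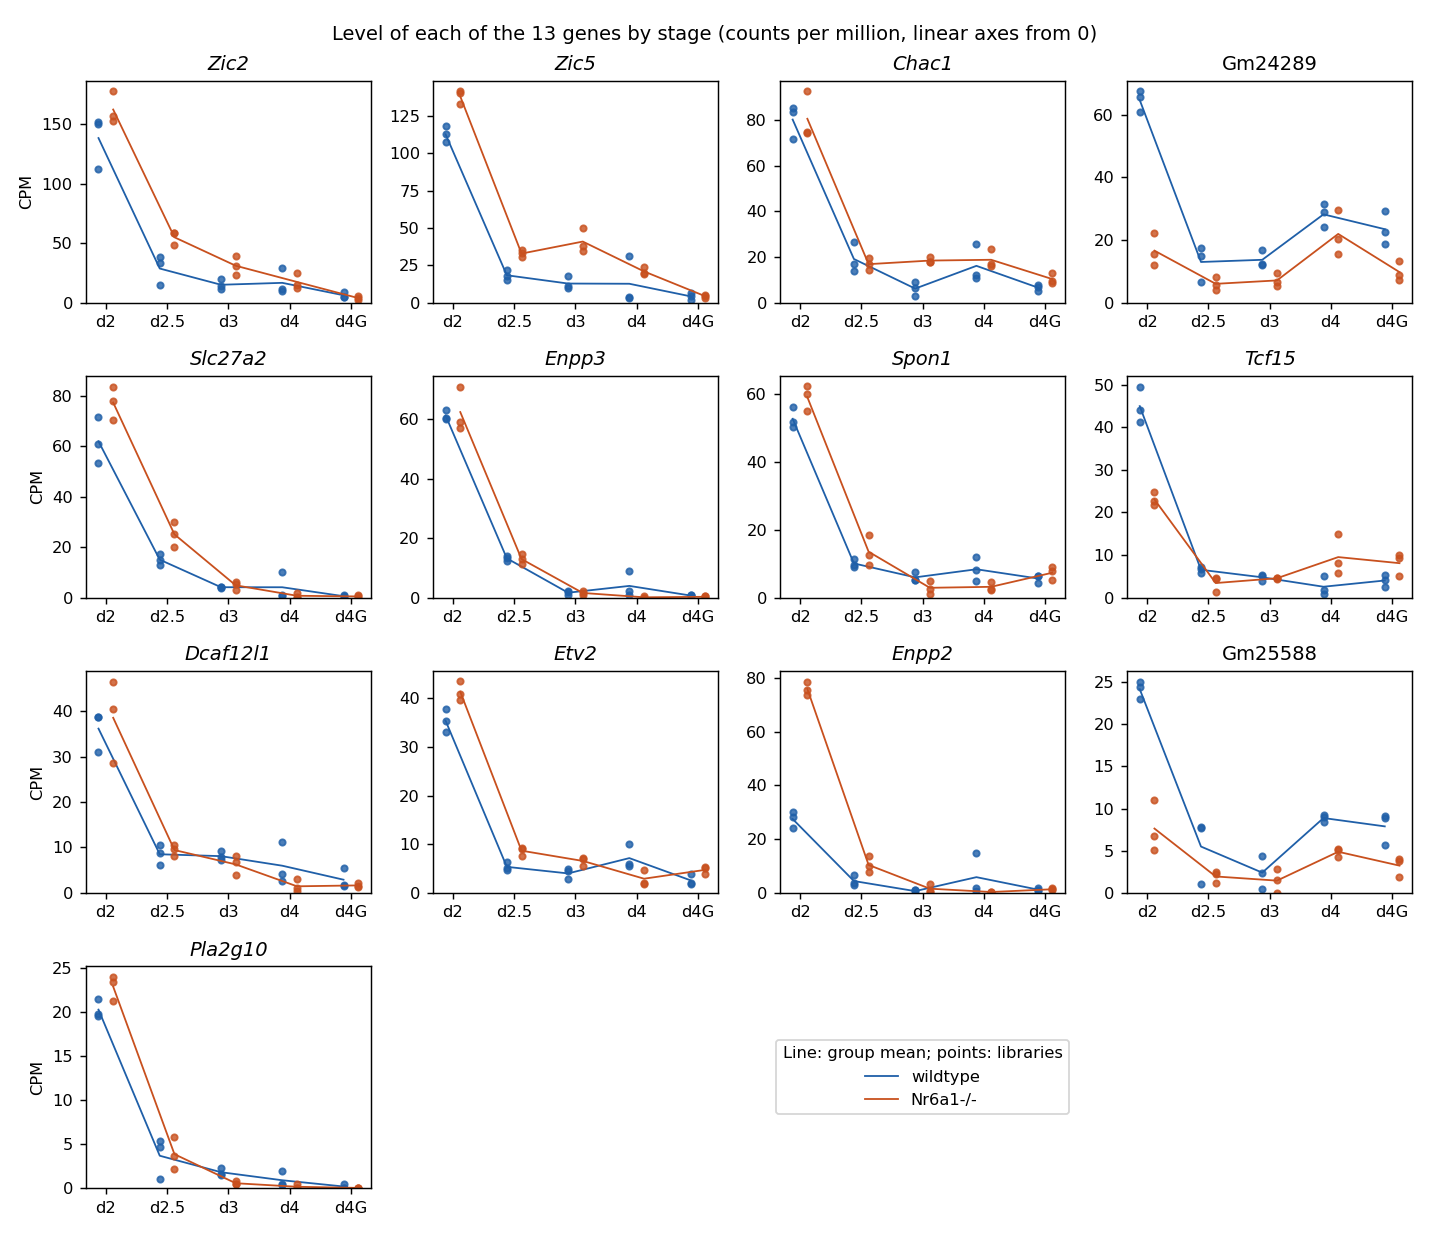
CPM (y axis, linear, from 0) of each of the 13 genes at the 5 stages (x axis), in wildtype (blue) and Nr6a1-/- (orange) libraries. Points are the 3 libraries of a group and lines join group means. All 13 genes drop between d2 and d2.5 in both genotypes, while Gm24289, Gm25588 and Tcf15 start lower, and Enpp2 higher, in Nr6a1-/- cells.

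In Nr6a1-/- cells all 13 genes were lower after 12 h of CHIR than at d2, with no group without CHIR to compare. Against d2, all 13 of 13 were called lower at d2.5 (edgeR quasi-likelihood test, Benjamini-Hochberg FDR below 0.05), beside 11.2% of the 12149 genes tested, and 0 were called higher, beside 12.9%. Their log2 fold changes ran from -2.91 for Enpp2 to -1.48 for Gm24289 with a median of -2.16, whereas the median over all genes tested was 0.01. At d3 all 13 were again called lower against d2, beside 15.1% of genes tested, and 0 higher, beside 16.6%. The log2 fold changes now ran from -5.68 to -1.24, and the median was -2.66 beside 0.02 over all genes. All 13 were called lower at both stages under every processing alternative tried, including DESeq2 and the fits that left out 1 library.

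Between 12 h and 24 h of CHIR some of the 13 genes were called lower again and others were not, and no test compared the former with the latter. Of the 13, 6 were called lower at d3 against d2.5 in Nr6a1-/- cells (8.45% of all genes passed as lower) and 0 higher (7.43%), and at an unadjusted p below 0.05 the count of higher genes was also 0, as it was with DESeq2. The 6 were Slc27a2, Enpp3, Enpp2, Pla2g10, Spon1 and Zic2, the first 4 of which encode enzymes that act on lipids or nucleotides. The other 7 had log2 fold changes between -0.60 (Dcaf12l1) and 0.41 (Tcf15), and were not called between these stages, although all were called lower than at d2 at both. The call for Zic2 was lost with DESeq2 (adjusted p = 0.12) and without replicate 1 or 2 of d2.5 or replicate 1 or 2 of d3 (adjusted p of edgeR from 0.0562 to 0.119). Pla2g10 had 4 counts at d3 and 31 at d2.5, and did not enter the fit of only the libraries compared.

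**Figure D2:**
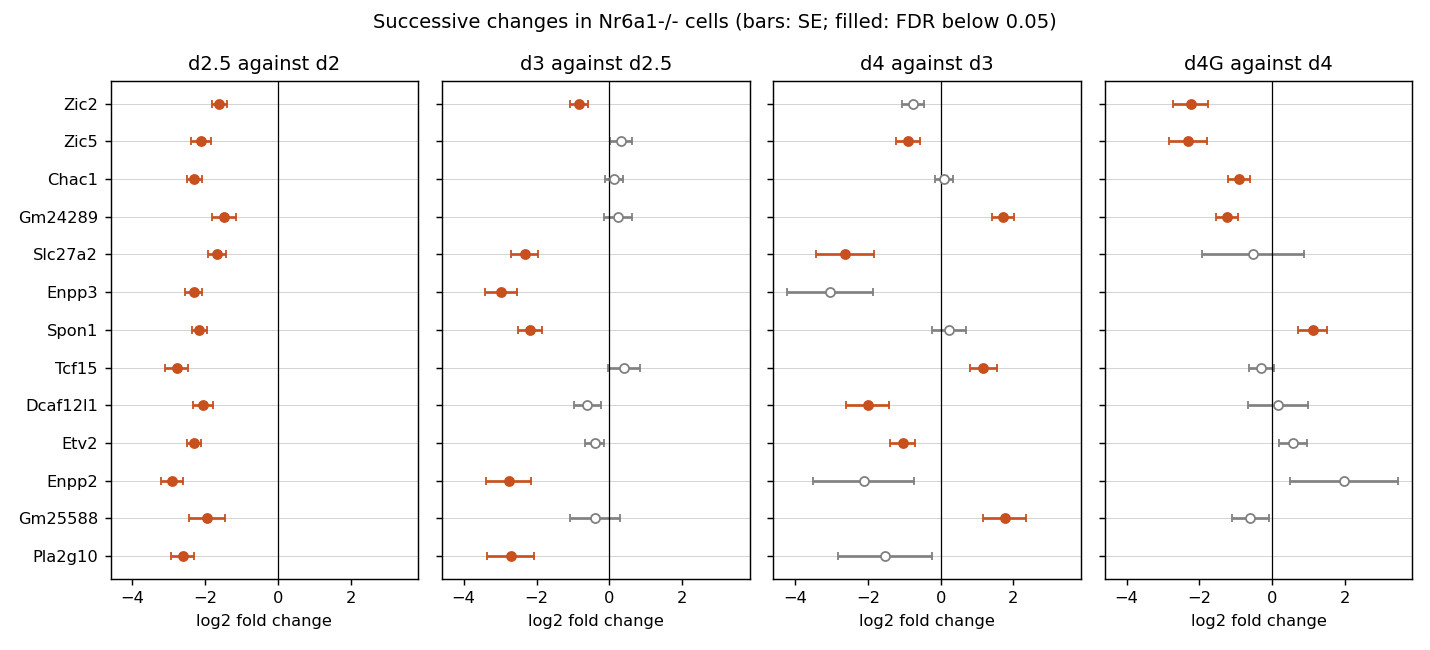
Log2 fold change (x axis) of each gene between successive stages in Nr6a1-/- cells, from edgeR. Bars are standard errors, filled orange points have an FDR below 0.05, open grey points do not, and genes with at most 3 counts in both groups are left out. All 13 genes sit left of 0 in the d2.5 panel, 6 are filled at d3, and at d4 points lie on both sides of 0.

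Among the transcription factors, Zic2 and Zic5 are zinc-finger proteins known from the epiblast and the neural plate. They are neighbours on chromosome 14 that are read in opposite directions, Zic5 at chr14:122456795-122465677 on the minus strand and Zic2 at chr14:122475435-122479852 on the plus strand (GRCm38, GENCODE). Zic2 was at 112, 151 and 152 CPM in the 3 d2 wildtype libraries and at 153, 157 and 178 CPM in the d2 Nr6a1-/- libraries. At d2.5 it was at 33.1, 14.5 and 38.4 CPM in wildtype and at 58.6, 58.2 and 48.2 CPM in Nr6a1-/- libraries, and the groups did not overlap. Nr6a1-/- cells thus kept 33.8% of their d2 mean at d2.5 and wildtype cells 20.7%. The wildtype share rests in part on replicate 2 of d2.5, without which Zic2 did not meet the rule. The fall in Nr6a1-/- cells was 3.05-fold at d2.5 (log2 fold change -1.61 ± 0.21, SE, edgeR FDR = 2.4e-07) and 5.39-fold at d3.

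Zic5 was at 107, 118 and 113 CPM in d2 wildtype and 141, 133 and 140 CPM in d2 Nr6a1-/- libraries. At d3 its 3 wildtype libraries were at 11.05, 9.71 and 17.6 CPM, and its 3 Nr6a1-/- libraries at 34.8, 37.8 and 50.04 CPM, all above the wildtype libraries. The Nr6a1-/- mean was 3.2 times the wildtype mean at d3, and the share of the own d2 mean that was left was 29.6% in Nr6a1-/- and 11.3% in wildtype cells. These differences between genotypes at stages used in choosing the genes are given as values only. The fall of Zic5 in Nr6a1-/- cells from d2 to d2.5 was 4.33-fold (log2 fold change -2.11 ± 0.26, SE, edgeR FDR = 9.44e-08), and from d2.5 to d3 the log2 change was 0.32 ± 0.30 (SE, edgeR adjusted p = 0.54).

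Tcf15 (chr2:152143561-152149097, plus strand) encodes a basic helix-loop-helix factor known from the primed epiblast and, later, from paraxial mesoderm and somites. It was at 41.2, 49.6 and 44.1 CPM in d2 wildtype libraries and at 21.7, 24.9 and 22.7 CPM in d2 Nr6a1-/- libraries, so that the Nr6a1-/- mean was 0.513 of the wildtype mean before CHIR was added. In Nr6a1-/- cells it fell 6.88-fold by d2.5 (log2 fold change -2.78 ± 0.33, SE, edgeR FDR = 2.24e-08). It was the only protein-coding member called higher at d4 against d3 in Nr6a1-/- cells. From 4.41, 4.73 and 4.58 CPM at d3 it reached 14.9, 5.71 and 8.03 CPM at d4 in Nr6a1-/- libraries, a rise of 2.25-fold (log2 fold change 1.17 ± 0.37, SE, edgeR FDR = 0.017). That call rested on replicate 1 of d4 Nr6a1-/-, without which the log2 fold change was 0.62 and the adjusted p 0.28. Over the genes compared, replicate 1 differed more from replicates 2 and 3 (chi-square per gene 5.86 and 7.0) than these differed from each other (2.65). In wildtype cells Tcf15 was at 0.839, 5.15 and 1.74 CPM at d4, and the d4 Nr6a1-/- libraries were above all 3.

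Etv2 (chr7:30633616-30635852, minus strand), an ETS-domain factor known for specifying endothelial and blood progenitors, was at 35.3, 33.0 and 37.8 CPM in d2 wildtype and 39.6, 40.9 and 43.5 CPM in d2 Nr6a1-/- libraries. By d2.5 it was at 6.24, 5.17 and 4.61 CPM in wildtype and 7.66, 9.28 and 9.05 CPM in Nr6a1-/- libraries. The fall in Nr6a1-/- cells was 4.9-fold (log2 fold change -2.29 ± 0.19, SE, edgeR FDR = 1.2e-11). The Nr6a1-/- libraries were above the wildtype libraries at d2, d2.5 and d3, and below them at d4.

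Among the enzymes, Enpp2 encodes autotaxin, the secreted enzyme that makes lysophosphatidic acid, and Enpp3 is a membrane-bound relative that cleaves extracellular nucleotides. Enpp2 (chr15:54838901-54952892, minus strand) was at 28.2, 24.0 and 30.3 CPM in d2 wildtype libraries and at 73.7, 78.6 and 75.5 CPM in d2 Nr6a1-/- libraries, 2.76 times the wildtype mean with no overlap. At d3 it was counted 2, 2 and 0 times in the wildtype and 2, 8 and 1 times in the Nr6a1-/- libraries. From d2 to d3 it fell 51.2-fold in Nr6a1-/- cells (log2 fold change -5.68 ± 0.45, SE, edgeR FDR = 9.07e-13), and the share of d2 left was 2.03% in Nr6a1-/- and 2.29% in wildtype cells.

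Enpp3 (chr10:24772406-24842823, minus strand) began at 63.1, 60.6 and 60.2 CPM in wildtype and 57.1, 59.2 and 71.0 CPM in Nr6a1-/- libraries, which overlapped. At d2.5 it was at 12.5, 13.95 and 13.3 CPM and at 14.5, 11.4 and 13.03 CPM, and at d3 at 2.40, 1.85 and 0.798 CPM and at 2.40, 0.859 and 1.53 CPM. The values of the 2 genotypes overlapped at each of these stages. The fall to d3 in Nr6a1-/- cells was 38.9-fold (log2 fold change -5.28 ± 0.34, SE, edgeR FDR = 3.34e-15).

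Slc27a2 (chr2:126552407-126588243, plus strand) encodes a very long-chain acyl-CoA synthetase that also serves in fatty acid uptake, and Pla2g10 a secreted phospholipase A2 that releases fatty acids from membrane lipids. Slc27a2 was at 53.4, 71.6 and 60.9 CPM in d2 wildtype and at 70.5, 77.9 and 83.6 CPM in d2 Nr6a1-/- libraries. At d2.5 it was at 14.9, 12.9 and 17.4 CPM and at 25.3, 19.99 and 30.1 CPM, the Nr6a1-/- libraries all being higher, and by d3 the genotypes overlapped again at 3.99 to 4.32 and 3.01 to 6.11 CPM. It fell 3.18-fold by d2.5 and 16.0-fold by d3 in Nr6a1-/- cells (log2 fold change at d3 -4.00 ± 0.32, SE, edgeR FDR = 1.26e-12). Pla2g10 (chr16:13715057-13730983, minus strand) began at 19.5 to 21.5 CPM in wildtype and 21.2 to 24.0 CPM in Nr6a1-/- libraries. It fell 40.0-fold by d3 in Nr6a1-/- cells, from 173 counts to 4 over the 3 libraries, and was not counted in any d4G Nr6a1-/- library. Exons of Slc27a2, Enpp2 and Pla2g10 overlap genes on the other strand (Gm26697, Gm26684 and Pla2g10os), and the sources used here do not state whether strand was used in counting, so that reads of the overlapping genes may be included.

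Chac1 (chr2:119351229-119354381, plus strand) encodes an enzyme that degrades glutathione and is a known target of the stress-induced factor ATF4. It was at 71.5, 83.6 and 85.2 CPM in d2 wildtype and at 74.2, 92.5 and 74.7 CPM in d2 Nr6a1-/- libraries, and at 26.4, 13.95 and 16.9 and 14.2, 16.8 and 19.6 CPM at d2.5. Up to then the genotypes overlapped. At d3 the wildtype libraries were at 9.13, 6.48 and 2.79 CPM and the Nr6a1-/- libraries at 20.03, 17.6 and 17.6 CPM, without overlap and with a ratio of means of 3.001. The fall from d2 to d2.5 in Nr6a1-/- cells was 4.93-fold (log2 fold change -2.30 ± 0.21, SE, edgeR FDR = 6.56e-11), and the log2 change from d2.5 to d3 was 0.13 ± 0.25.

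Spon1 (chr7:113765998-114043370, plus strand), which encodes the extracellular matrix protein F-spondin, was at 51.8, 50.1 and 55.9 CPM in d2 wildtype and 59.9, 54.8 and 62.1 CPM in d2 Nr6a1-/- libraries. At d3 it was at 5.28, 5.09 and 7.58 CPM in wildtype and 1.20, 2.58 and 4.97 CPM in Nr6a1-/- libraries, all of the latter being lower. It fell 20.3-fold from d2 to d3 in Nr6a1-/- cells (log2 fold change -4.34 ± 0.27, SE, edgeR FDR = 1.36e-15). Dcaf12l1, an X-linked relative of the WD-repeat protein gene Dcaf12 (chrX:44786570-44790197, minus strand), was at 31.0 to 38.8 CPM in d2 wildtype and 28.6 to 46.5 CPM in d2 Nr6a1-/- libraries. Its fall in Nr6a1-/- cells was 4.18-fold by d2.5 and 6.34-fold by d3, and the genotypes overlapped at all 5 stages.

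**Figure D3:**
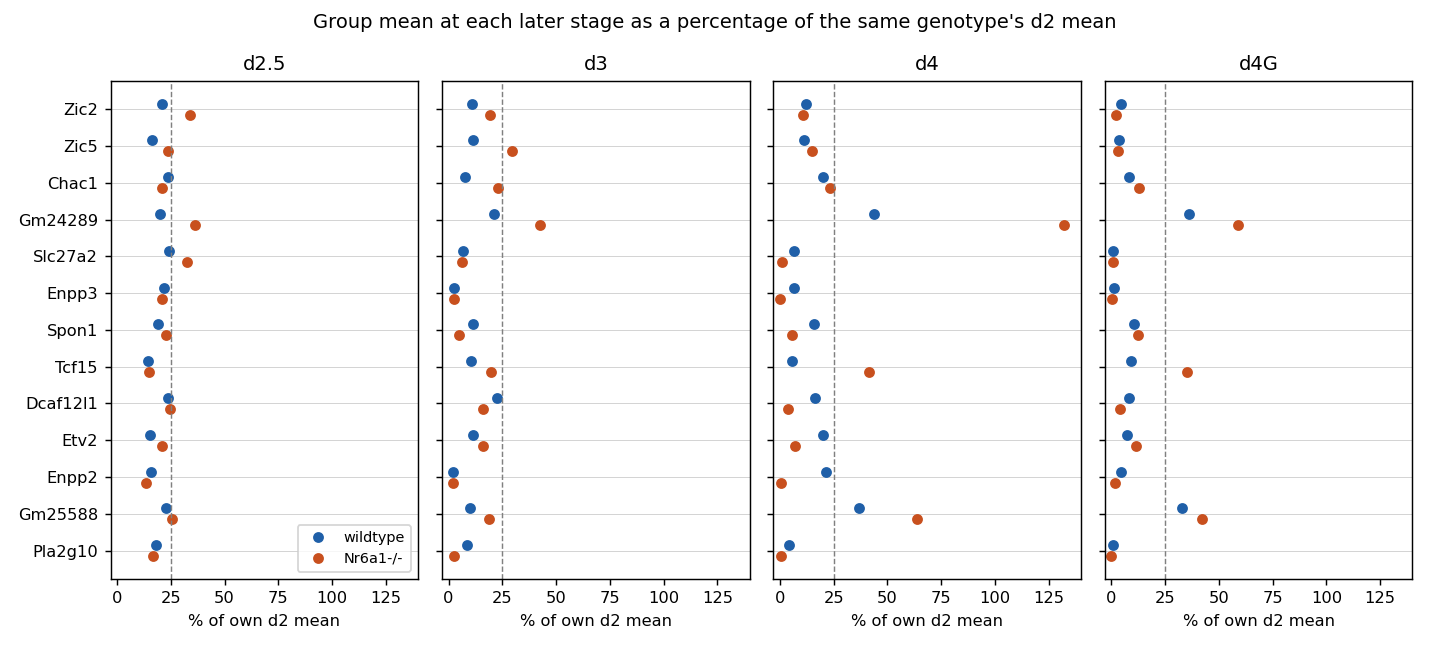
Mean level at d2.5, d3, d4 and d4G as a percentage of the same genotype's own d2 mean (x axis, linear) for each gene, in wildtype (blue) and Nr6a1-/- (orange) cells. The dashed line is the 25% limit that the rule set for wildtype cells at d2.5 and d3. Wildtype points at d2.5 and d3 lie left of the line by choice, while 4 Nr6a1-/- genes lie right of it at d2.5 and Gm24289 stands at 132% at d4.

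Promoter sequences from RefSeq (GRCm38.p6, from 250 bases before to 50 after the gene start) were matched for 7 of the 13 genes, Zic5, Chac1, Slc27a2, Enpp3, Dcaf12l1, Etv2 and Pla2g10. They were searched on both strands for the TCF/LEF core CTTTGA, the OTX core TAATCC, the octamer ATGCAAAT bound by POU factors and the ATF4 element TGATGNAAN. The shares of all 27025 promoters with a match were 16.2%, 7.16%, 1.75% and 4.04%, and among the 7 genes the matches were in Slc27a2 for TCF/LEF, in Pla2g10 for OTX, in none for the octamer and in Chac1 for ATF4. A match is a description of the letters and not a bound site. The Chac1 and Slc27a2 promoters are shown 5′ to 3′ because they hold the ATF4 and TCF/LEF matches, which stand in capitals, on the opposite strand in Chac1. They lie at chr2:119350992-119351291 and chr2:126552774-126553073, both on the plus strand. The RefSeq starts lie downstream of the GENCODE gene starts given above, so that most of the Chac1 stretch is upstream of that gene while the whole Slc27a2 stretch is inside it.
Chac1: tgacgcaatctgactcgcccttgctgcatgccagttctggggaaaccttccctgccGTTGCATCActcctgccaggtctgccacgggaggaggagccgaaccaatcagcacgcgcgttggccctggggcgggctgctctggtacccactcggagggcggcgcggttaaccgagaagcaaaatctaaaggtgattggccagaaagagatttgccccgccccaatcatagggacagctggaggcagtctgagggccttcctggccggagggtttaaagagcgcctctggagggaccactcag
Slc27a2: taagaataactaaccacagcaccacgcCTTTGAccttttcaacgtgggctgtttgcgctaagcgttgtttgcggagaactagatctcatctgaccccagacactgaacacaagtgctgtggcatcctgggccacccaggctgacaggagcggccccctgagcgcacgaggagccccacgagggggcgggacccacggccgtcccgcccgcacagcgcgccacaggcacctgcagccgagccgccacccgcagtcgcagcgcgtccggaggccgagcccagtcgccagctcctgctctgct

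The 2 small RNA genes began lower in Nr6a1-/- than in wildtype cells, and in wildtype cells they were back at 43.6% (Gm24289) and 36.7% (Gm25588) of d2 at d4, above the other 11 genes, the highest of which was Enpp2 at 21.2%. Over replicates 1 and 3 of d4 wildtype alone they were at 46.7% and 36.6%. Enpp2 was then at 4.69%, and the highest of the 11 was Etv2 at 16.1%. Gm24289 is annotated as a scaRNA and Gm25588 as a snoRNA, classes of small nuclear RNAs that guide the chemical modification of other RNAs. Gm24289 lies at chr9:64295931-64296065 within Tipin and Gm25588 at chr1:153440079-153440218 within Shcbp1l, each on the plus strand like its host and clear of annotated host exons. Their transcripts are shown 5′ to 3′ as DNA from GENCODE because they are the only non-coding members. The capitals mark the last ACA, which in both is followed by 2 bases, the place where the ACA box of the H/ACA class is known to lie.
Gm24289: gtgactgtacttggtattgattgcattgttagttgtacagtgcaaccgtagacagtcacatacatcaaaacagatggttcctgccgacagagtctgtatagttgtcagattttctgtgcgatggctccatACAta
Gm25588: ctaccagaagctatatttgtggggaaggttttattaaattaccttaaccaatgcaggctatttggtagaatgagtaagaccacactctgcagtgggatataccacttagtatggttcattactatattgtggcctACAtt

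Gm24289 was at 65.6, 67.6 and 60.9 CPM in d2 wildtype libraries and at 22.1, 12.1 and 15.6 CPM in d2 Nr6a1-/- libraries, a ratio of means of 0.257 with no overlap. In Nr6a1-/- cells it fell 2.79-fold by d2.5 (log2 fold change -1.48 ± 0.32, SE, edgeR FDR = 0.000687). From 9.61, 5.15 and 6.49 CPM at d3 it returned to 29.7, 20.5 and 15.6 CPM at d4, a rise of 3.27-fold (log2 fold change 1.71 ± 0.31, SE, edgeR FDR = 4.56e-05), which put it at 132% of its d2 mean. The rise from d3 to d4 was called under every alternative tried. Gm25588 was at 24.4, 25.03 and 23.0 CPM in d2 wildtype and 11.1, 5.12 and 6.69 CPM in d2 Nr6a1-/- libraries. It rose 3.38-fold from d3 to d4 in Nr6a1-/- cells (log2 fold change 1.76 ± 0.59, SE, edgeR FDR = 0.0241), a call lost without replicate 2 or 3 of d3 or replicate 2 or 3 of d4 (adjusted p of edgeR from 0.0569 to 0.129).

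These RNAs are counted in libraries primed on poly(A), and reads of a small RNA cannot be told apart from reads of the host intron on the same strand. Tipin, the host of Gm24289, was at 247 ± 7.72 CPM in d2 wildtype and 213 ± 1.59 CPM in d2 Nr6a1-/- libraries, and at 133 ± 7.28 and 162 ± 3.38 CPM at d2.5 (SD, n = 3). Shcbp1l, the host of Gm25588, was at 0 counts in all 3 d2 wildtype libraries. The other 1524 annotated snoRNA and scaRNA genes moved in the same way as a class: their summed level was 929 ± 22.0 CPM in d2 wildtype and 415 ± 17.4 CPM in d2 Nr6a1-/- libraries, 338 ± 29.7 and 239 ± 18.7 CPM at d3, and 632 ± 45.6 and 504 ± 104 CPM at d4 (SD, n = 3). The part of this class-wide shift in the values of Gm24289 and Gm25588 was not tested.

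At d4, 24 h after d3, the 13 genes went different ways in Nr6a1-/- cells, where stage and pool cannot be told apart. Against d3, 4 were called lower (12.3% of genes tested were) and 3 higher (13.6%), with a median log2 fold change of -0.89 beside 0.00 over all genes. The lower ones were Slc27a2 (log2 fold change -2.64), Dcaf12l1 (-2.01), Etv2 (-1.05) and Zic5 (-0.89), and the higher ones Gm25588 (1.76), Gm24289 (1.71) and Tcf15 (1.17). The counts behind the falls were small, such as 37 against 5 over the 3 libraries for Slc27a2. Each of the 4 lower calls was lost in some fit without 1 library. Slc27a2 was lost without replicate 1 or 3 of d4, Dcaf12l1 without replicate 1 of d4, Etv2 without replicate 1 of d3 or replicate 2 or 3 of d4, and Zic5 without replicate 2 or 3 of d3 or any replicate of d4. The count fell to 1 without replicate 1 of d4 Nr6a1-/- and to 2 without replicate 2 or replicate 3 of that group. It rose to 6 without replicate 2 of d4 wildtype, which enters the shared estimate of spread, and with library totals alone, and to 5 with no filter. Zic5 also lost its call with DESeq2 (adjusted p = 0.20), and Etv2 with no filter or with only the libraries compared (adjusted p of edgeR 0.0647 and 0.0701).

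With Gdf11 (d4G against d4) in Nr6a1-/- cells, 4 of the 13 genes were called lower (9.59% of genes tested) and 1 higher (8.45%). An effect of Gdf11 here cannot be told apart from a difference between pools. Zic2 fell from 14.9, 12.4 and 24.9 CPM to 2.38, 3.82 and 5.28 CPM, 4.70-fold (log2 fold change -2.23 ± 0.48, SE, edgeR FDR = 0.000774). Zic5 fell from 19.6, 19.0 and 24.1 CPM to 4.75, 3.18 and 4.84 CPM, 4.98-fold (log2 fold change -2.32 ± 0.53, SE, edgeR FDR = 0.00133). Both calls held under every alternative tried, and the d4 and d4G libraries did not overlap. Gm24289 (log2 fold change -1.23) and Chac1 (-0.90) were the other genes called lower, and Spon1 (1.12) was called higher. The call for Gm24289 was lost without replicate 1 of d4 Nr6a1-/- (adjusted p = 0.069 by edgeR). That for Chac1 was lost without replicate 2 of d4, or replicate 1 or 2 of d4G (adjusted p of edgeR from 0.0801 to 0.127), and with library totals alone (0.0509). That for Spon1, which had 23 counts at d4 and 45 at d4G, was lost in 4 fits without a library: replicate 2 or 3 of d4, or replicate 1 or 3 of d4G (adjusted p of edgeR from 0.104 to 0.182), and with no filter or only the libraries compared (0.0535 and 0.071).

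Between genotypes at d4G, a comparison the choice of genes did not use, 1 of the 13 genes was called lower in Nr6a1-/- cells (4.63% of genes tested) and 0 higher (3.28%). At an unadjusted p below 0.05 there were 2 lower and 2 higher, and DESeq2 also called 0 higher. The gene called was Gm24289, at 29.3, 22.4 and 18.7 CPM in wildtype and 7.13, 8.91 and 13.2 CPM in Nr6a1-/- libraries, 2.29-fold lower (log2 fold change -1.19 ± 0.30, SE, edgeR FDR = 0.00785). Its call was lost without replicate 1 of d4G Nr6a1-/- (adjusted p = 0.0697 by edgeR) or replicate 1 of d4G wildtype (0.0617). Gm25588 had a log2 fold change of -1.18 ± 0.48 (SE, edgeR adjusted p = 0.143) and Tcf15 one of 1.09 ± 0.41 (adjusted p = 0.108). The 4 genes at the floor at this stage, Slc27a2, Enpp3, Enpp2 and Pla2g10, had at most 8 counts in all 3 libraries of either genotype, so that a difference between genotypes in them was not detectable at this depth.

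The same thresholds were then applied to the Nr6a1-/- means, with the d4 mean over 3 libraries. They were met by 18 genes other than the 9 left out by name, and 8 genes were shared with the wildtype set, which is 61.5% of the 13 and 44.4% of the 18. The 5 that dropped out were Zic2, Zic5 and Slc27a2, at 33.8%, 23.8% and 32.5% of d2 at d2.5 with Zic5 at 29.6% at d3, and the 2 small RNA genes, whose d2 mean was under 20 CPM. The small RNA genes were over other limits too. Gm24289 was at 36.1% of d2 at d2.5, 42.7% at d3 and 132% at d4, and Gm25588 at 25.45% at d2.5 and 63.9% at d4. Among the 10 genes met in Nr6a1-/- cells only, L1td1 (616 CPM at d2 and 131 CPM at d2.5), Slc7a3 (254 and 59.4 CPM) and Car4 (153 and 28.7 CPM) were the most abundant, and were named after their values were seen. In wildtype cells L1td1 went from 423 to 156 CPM, 36.9% of d2, Slc7a3 from 206 to 60.8 CPM, 29.5% of d2, and Car4 from 106 to 50.9 CPM, 48.1% of d2. By d4 the Car4 means were 93.0 CPM (wildtype) and 1.325 CPM (Nr6a1-/-). Whether a gene met the limit in 1 genotype and not in the other was not tested.

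The 9 genes left out by name bracket the 13 in abundance and depth of fall. At d2 Dnmt3b, the de novo DNA methyltransferase, had means of 1641 and 2354 CPM in wildtype and in Nr6a1-/- cells, Utf1 at 502 and 551 CPM, Pim2 at 479 and 581 CPM and Pou3f1 at 338 and 441 CPM, against 138 and 162 CPM for Zic2, the most abundant of the 13. Otx2, Pou3f1 and Fgf5 were left at 4.18%, 8.33% and 10.5% of d2 at d2.5 in wildtype cells, below the lowest of the 13 (14.6%, Tcf15). Dnmt3b, Utf1 and Pim2 were at 28.0%, 32.2% and 39.5% at d2.5, over the limit, and at 7.93%, 8.71% and 3.74% at d3. Nanog, which is on the epiblast list, and Zfp42 were at 265% and 137% of d2 at d2.5. Sox1, a neural factor, was at 17.0 CPM in d2 wildtype cells and 2.76 CPM in d2 Nr6a1-/- cells, a lower level in the mutant like those of Tcf15, Gm24289 and Gm25588.

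Over all genes tested in Nr6a1-/- cells, 11.2% were called lower and 12.9% higher at d2.5 against d2. At d3 against d2 these shares were 15.1% and 16.6%. No list of genes was tested against them. The list of 24 epiblast genes includes Zic2, Zic5 and Tcf15. Of the 24, these 3 included, 18 were called lower and 3 higher at d2.5 against d2 in Nr6a1-/- cells, and 18 lower and 2 higher at d3, with median log2 fold changes of -1.61 and -2.15. Those called higher at d2.5 included Nanog (log2 fold change 1.96) and Lef1 (1.09), a transcription factor of the Wnt pathway. Among 20 tested genes of naive pluripotency, 9 fell and 4 rose by d2.5. Of 15 genes of the Wnt target list 1 was lower and 8 higher, of 15 of the NMP list 0 and 10, of 15 of the Nodal list 1 and 4, of 13 of the FGF list 3 and 1, and of 7 of the anterior neural plate list 3 and 0. Lists of other cells the cultures could hold gave 1 lower and 1 higher of 9 for feeder fibroblasts, 0 and 2 of 12 for endoderm, and 1 and 2 of 7 for extraembryonic ectoderm. Their summed levels in Nr6a1-/- libraries ran from 91.7 to 97.4 CPM at d2 and 91.9 to 108 CPM at d2.5 for 14 fibroblast genes (1 at 0 at both), from 89.9 to 105 and 128 to 146 CPM for 15 endoderm genes (2 and 0 at 0), and from 143 to 163 and 197 to 246 CPM for 10 extraembryonic genes (1 at 0 at both). The endoderm sum was 248 to 279 CPM in d2 wildtype libraries, above that of d2 Nr6a1-/- libraries, and its part in the differences between genotypes was not tested.

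Replicate 2 of d4 wildtype carried more of these transcripts than the other libraries of its group. It was above both replicates 1 and 3 for 11 of the 13 genes and for 7 of the 9 left out by name, below both for Gm24289 and between them for Gm25588. The rule asked for a low mean of replicates 1 and 3, and the share of all genes highest in replicate 2 was not counted. Zic5 was at 31.2 CPM in replicate 2 and at 2.94 and 3.77 CPM in the others, and Enpp2 at 14.9 against 0.839 and 1.74 CPM. Over the 11 genes the excess was 7.62% to 49.5% of the wildtype d2 mean and 6.75% to 20.2% of the Nr6a1-/- d2 mean. Enpp2, which is 2.76 times higher in Nr6a1-/- than in wildtype d2 cells, gave the highest of the former shares (49.5%) and 17.9% of the latter, and the small RNA genes, which are high in wildtype and low in Nr6a1-/- d2 cells, differed from the other 2 libraries by -6.10 and 0.114 CPM. A non-negative least-squares description of the library by the 10 group means over 12149 genes, chosen after the values were seen, gave weights of 78.5% on d4 wildtype, 16.0% on d2 Nr6a1-/-, 4.83% on d3 Nr6a1-/- and 0.0% on d2 wildtype. In the same description none of the other 11 d4 and d4G libraries had weight on a d2 group. Weights outside the own group were also large in some other libraries. They were 53.9% on d2.5 Nr6a1-/- for replicate 3 of d2.5 wildtype, and 42.0% on d4 wildtype for replicate 1 of d4 Nr6a1-/-. How the excess transcripts came to be in replicate 2 of d4 wildtype was not tested.

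**Figure D4:**
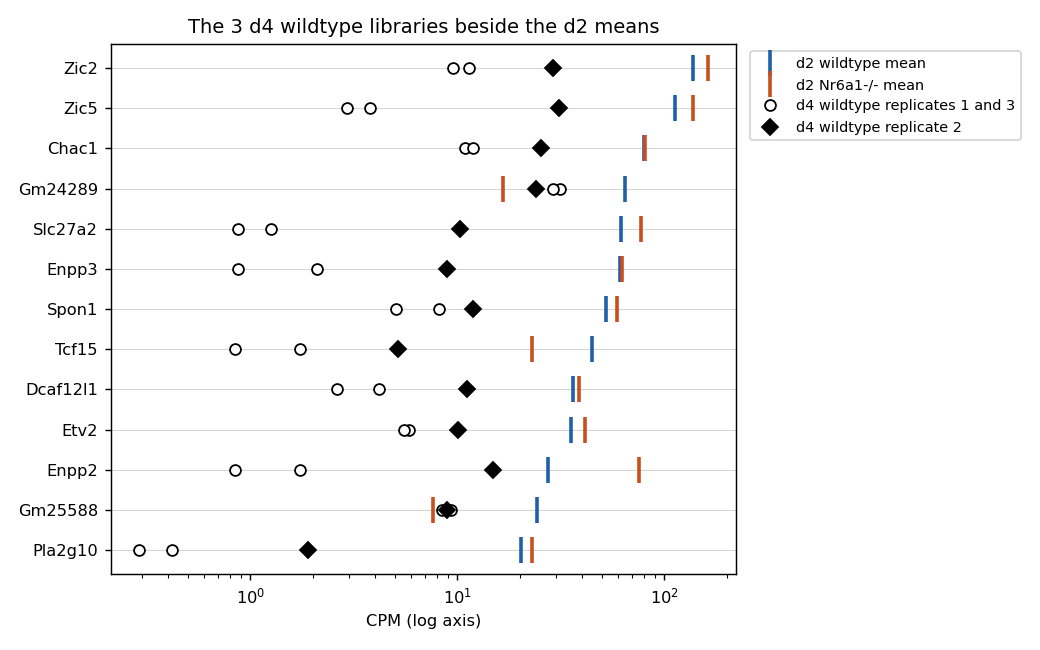
Level of each gene in the d4 wildtype libraries (x axis, CPM, log scale), with replicate 2 as black diamonds and replicates 1 and 3 as open circles, beside the d2 means of wildtype (blue bars) and Nr6a1-/- cells (orange bars). The diamond is right of both circles for 11 of the 13 genes and not for Gm24289 and Gm25588.

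Without that replicate, wildtype cells at d4 held less of most of these genes, and the comparison with Nr6a1-/- cells at d4 changed. With all 3 wildtype libraries the Nr6a1-/- libraries were above them for 1 gene, Tcf15, below for 5 and overlapping for 7. Against replicates 1 and 3 alone, Zic2, Zic5, Chac1 and Tcf15 were higher in all Nr6a1-/- libraries, with ratios of means of 1.67, 6.23, 1.65 and 7.40 beside 1.05, 1.65, 1.17 and 3.7 with replicate 2. For Slc27a2 the ratio was 0.187 with replicate 2 and 0.729 without it, the libraries overlapping in both cases. Libraries are less likely to overlap when fewer of them are compared, and the share of all genes above or below was not counted. These counts and ratios rest on stages used by the rule and have no test.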

How the data were processed

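RNA was measured in 30 libraries of 10 groups with 3 replicates (A, B and C in the table are called 1, 2 and 3). Libraries were primed on poly(A) with an index and a molecular identifier, and the submitters' processing notes name STAR, edgeR and mm10. The annotation, the counter, the use of strand and whether identifiers were collapsed are not given in the sources used here. The table the authors deposited gives raw counts of each gene in each library, without scaling or pooling. Uncollapsed identifiers would leave amplified copies in the counts. The authors' 5 tables of genes that differ between genotypes, with log2 fold changes, FDR and p-values, were not used. Columns that matched no sample numbered 0. Pairs of replicates differed by a chi-square per gene of 1.46 to 7.0 over 30 pairs, and none was counted as the same sample.

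CPM are counts over library totals. A gene was tested if 2 libraries of a group exceeded 10 counts and 2 CPM (12149 genes). All libraries entered 1 model of 10 groups in edgeR 4.0.16, under R 4.3.3, with TMM factors (0.909 to 1.05), glmQLFit and glmQLFTest, 2-sided, with Benjamini-Hochberg FDR below 0.05. SE is the log2 fold change over the square root of F. The fit was tested on simulated data. Alternatives were RLE factors, library totals alone, no filter, DESeq2 1.42.0, only the libraries compared, a replicate block and leaving out libraries. The members and lists were chosen with earlier results of these data known. Named were the 12 members with the highest d2 level, the 8 with the highest share left at d3 in Nr6a1-/- cells, those called at d4, d4G or on a list, those at the thresholds, and the 9 genes left out by name. Gene positions are from GENCODE release M21 (GRCm38). Some genes of the lists are not reported here by name.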

Additional observations from a re-analysis of the deposited data

Results flagged for a closer look

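The library d4 wildtype replicate 2, which the choice of genes did not use, held a signal above that of the other libraries of its group: 11 of the 13 genes were higher in it than in both replicates 1 and 3. The choice did use replicates 1 and 3, in which it asked for a low mean. The share of all genes highest in replicate 2 was not counted. The values of each gene and of the d2 groups are given above, and their source was not tested. Groups of 3 libraries were too small for the test for single outlying values.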

How the results depend on the processing

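All 13 genes were called lower at d2.5 and at d3 against d2 in Nr6a1-/- cells under every alternative. With a looser limit at d2.5 and d3 (1 part in 3 of d2) the rule gave 30 genes in place of 13, and leaving out 1 wildtype library gave 10 to 15. Zic2, Chac1 and Slc27a2 were lost without replicate 2 of d2.5, and Chac1, Dcaf12l1 and Gm25588 without replicate 3 of d2.5. Pla2g10 was lost without replicate 1 of d2, and Slc27a2 without replicate 2 of d2. Libraries of the same replicate number were at most weakly paired (correlations of same-number deviations from -0.111 to 0.134, with 1 of 18 pairs above 0.1). In 12 of the 18, however, the best correlation was with the same number, so that a weak pairing is not excluded. The replicate block left 13 and 13 genes called lower at d2.5 and d3 and changed no other count of calls. Leaving out 1 library in turn moved the count of genes called lower at d4 against d3 from 4 to between 1 and 6. It moved the count called higher at d4G against d4 from 1 to between 0 and 1, and the count called lower between genotypes at d4G from 1 to between 0 and 1. The count called higher at d4G was also 0 with no filter and with only the libraries compared. Of the calls of single genes recomputed under an alternative, 547 kept their direction and side of the threshold, 37 lost significance and none reversed. Library totals alone moved the share of lower calls over all genes from 47.6% to 59.8% at d4 against d3 and from 53.2% to 40.3% at d4G against d4. The cause was not tested. Depth limits the genes under about 2 CPM, as at d4 and d4G.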

Other observations

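Chac1 was one of the 13 genes, and 16 genes of the ATF4 stress response were looked up after it was seen. In Nr6a1-/- cells 10 of them were called lower and 2 higher at d2.5 against d2, with a median log2 fold change of -0.54, beside 11.2% and 12.9% of all genes. Atf4 itself was at 388 CPM at d2 and 221 CPM at d2.5, Trib3 at 53.0 and 24.3 CPM, and Mthfd2, an enzyme of mitochondrial folate metabolism, at 338 and 141 CPM. Asns, the asparagine synthetase, went from 389 to 494 CPM and Ddit4, an inhibitor of mTORC1 signalling, from 46.6 to 121 CPM. In wildtype cells Atf4 was at 404 and 250 CPM, Trib3 at 54.0 and 51.4 CPM and Ddit4 at 51.8 and 124 CPM at the same stages.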
